A study of Bos taurus with 54 samples.

Results

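JAK-STAT signalling in calf blood was followed through 9 genes, taken by symbol from the 32637 genes counted in every library. They were the kinases JAK1 and JAK2, the transcription factors STAT3, STAT5A and STAT5B, the inhibitors SOCS1, SOCS3 and CISH, and the kinase PIM1. All 9 were present in the gene table of each of the 54 libraries. The blood came from 15 Holstein male calves kept in climate-controlled rooms, and the age of the calves is not given in the sources used here. Thermoneutral control blood, labelled Normal, was drawn at 6AM before any heat, and blood labelled Heat Stress was drawn at 6PM after 12 h of heat. Every control was a morning sample and every heat stress sample an evening sample, so heat and time of day cannot be told apart. Red blood cells were lysed with NH4Cl before RNA was isolated with Trizol. The 29 RNA samples were turned into 3′ mRNA libraries with Takara SMART-Seq v4 3′ DE or Lexogen QuantSeq 3′, most of them with both. Both kits read the same RNA, so they are repeat measurements and not separate animals. The comparison of times used 13 control and 13 heat stress libraries per kit, and 12 animals per kit gave both. The 2 libraries of animal 20 carry the heat stress label, but the study's own records disagree about their time, and they were left out.

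Cytokines such as IL-6, interferons and the granulocyte and granulocyte-macrophage colony-stimulating factors bind receptors that have no enzyme activity of their own. The JAK kinases attached to these receptors phosphorylate STAT proteins, which pair up, enter the nucleus and switch on target genes. Among the targets are SOCS1, SOCS3 and CISH, whose products shut the receptor or the kinase down again, and PIM1, whose product favours survival of blood cells. STAT3 is best known for the response to IL-6 and granulocyte colony-stimulating factor, and STAT5A and STAT5B for the response to IL-2, growth hormone and prolactin. In blood leukocytes the pathway governs the output and survival of neutrophils and the growth of lymphocytes. The values here are RNA levels, and neither the proteins nor their phosphorylation were measured.

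The reads counted on genes ranged from 5140595 to 20699030 in Takara libraries and from 4516761 to 58521751 in Lexogen libraries. The deepest Lexogen library was that of animal 15 after heat stress. It had been loaded at a higher concentration than the rest. Levels are given as CPM, a gene's share of all reads counted on genes in its library, and fold changes come from edgeR's quasi-likelihood test with TMM scaling and Benjamini-Hochberg adjustment over all genes tested. Leukocyte markers moved between the times. The summed level of 10 neutrophil markers was 3839 to 18088 CPM (median 11769) in the 13 Takara control libraries and 4040 to 74196 CPM (median 40814) in the 13 heat stress libraries. Most of this sum was S100A8, S100A9 and S100A12. Their Takara control means were 1799, 1638 and 6724 CPM, beside a mean sum of 10817 CPM. After heat stress they were 6539, 5538 and 24290 CPM, beside a mean sum of 38005 CPM. All 8 tested neutrophil markers were higher after heat stress in Takara, and 5 of 7 were in Lexogen, where MMP8 was at 0 in every library. Of 8 T cell markers, 6 were lower in Takara (8 when scaled to total counts) and none in Lexogen. With the animal as a replicate block no Lexogen neutrophil marker was called. In bulk blood, fewer cells of a type and less RNA per cell cannot be told apart.

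Of the 9 genes, 7 were higher after heat stress in Takara libraries: JAK1, JAK2, STAT3, SOCS1, SOCS3, CISH and PIM1. None of the 9 was lower. Across all 12620 genes tested in Takara, 28.9% were called in either direction, 18.4% higher and 10.5% lower. The 9 genes had been chosen with earlier results of these data known. In Lexogen libraries, 3 of the 8 genes tested were higher, namely STAT3, SOCS3 and PIM1, against 5.55% of 11108 genes called, 5.09% higher and 0.459% lower. STAT5A had too few Lexogen reads to be tested. Same-numbered libraries came from the same animal, and with the animal as a replicate block the 7 Takara genes stayed called, with adjusted p from 0.0117 to 0.0166. The 3 Lexogen calls were lost under the block, where the adjusted p was 0.0869 for STAT3, 0.0645 for SOCS3 and 0.112 for PIM1. Their log2 changes were then 1.16, 0.92 and 0.72.

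**Figure D1:**
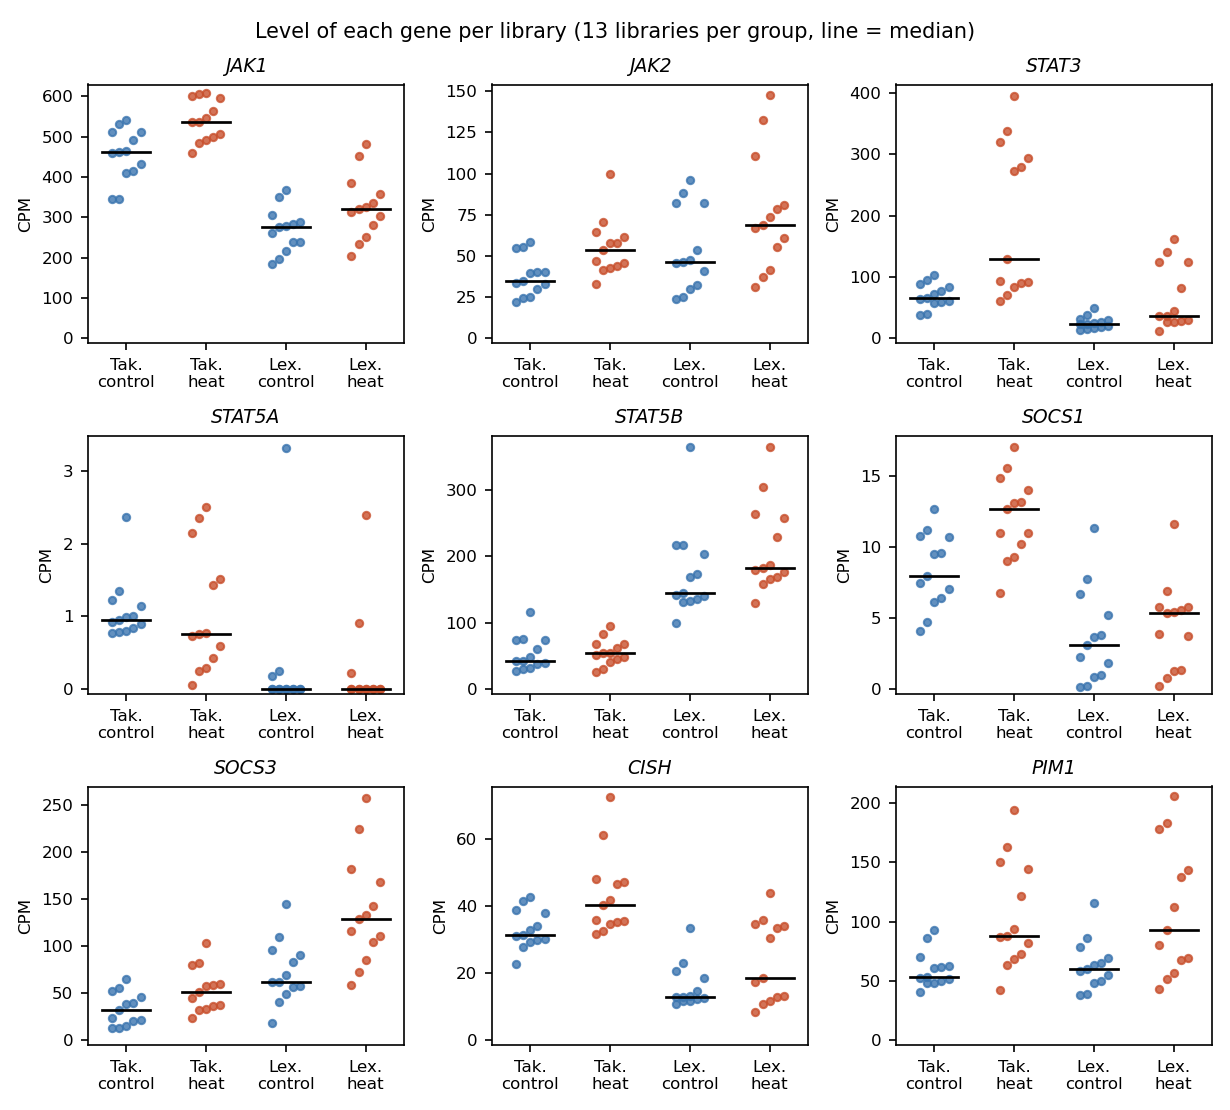
Level of each gene in CPM (vertical axes, linear) in the 13 control (blue) and 13 heat stress (red) libraries of each kit, with 1 point per library and a black line at the median. STAT3, SOCS3 and PIM1 sit higher after heat stress in both kits while the groups overlap, and STAT5A is at or near 0 in most Lexogen libraries.

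**Figure D2:**
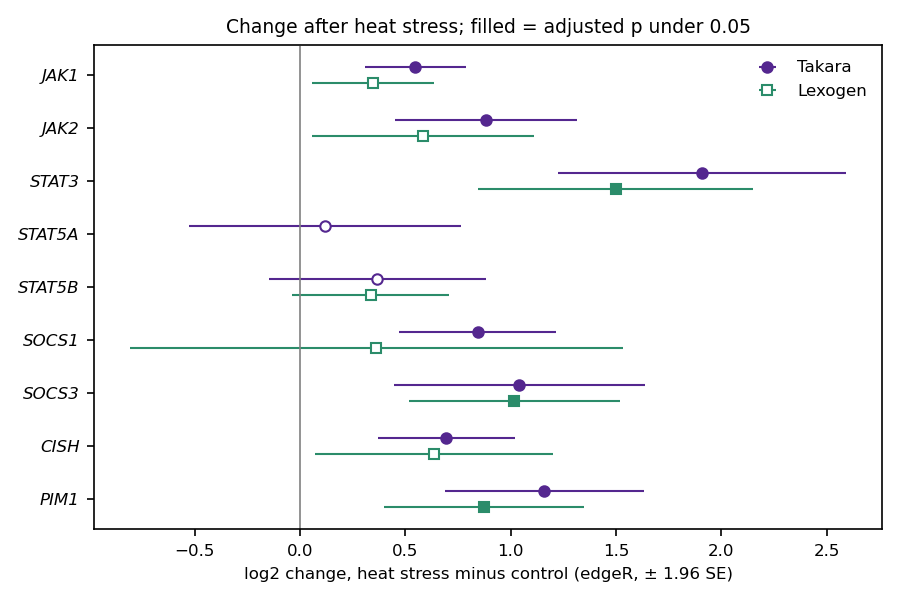
Log2 change from control to heat stress (horizontal axis, edgeR with TMM scaling) for each gene in Takara (circles) and Lexogen (squares) libraries, with lines for the approximate 95% interval and filled symbols for an adjusted p under 0.05. STAT3 has the rightmost estimate in each kit, 1.91 in Takara and 1.499 in Lexogen, and STAT5A has no Lexogen value.

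Library scaling mattered for the size of these changes in Takara. The TMM factors ran from 0.974 to 1.17 in the control and from 0.695 to 1.21 in the heat stress libraries. With TMM the median log2 change of all Takara genes was -0.05, and with libraries scaled to their total counts it was -0.27. The split of all Takara calls moved from 2325 higher and 1321 lower to 1301 higher and 2184 lower. The same 7 genes were called higher with the total count, and their log2 changes are given beside those with TMM below.

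JAK1 is the kinase of the interferon, IL-6 and IL-2 receptor families. The gene (Entrez Gene 537201) lies on chromosome 3, 80444566 to 80584006 of ARS-UCD2.0, and overlaps the end of RAVER2. It was counted at 346 CPM at the lowest, 462 at the median and 542 at the highest in Takara control libraries. After heat stress the lowest, median and highest were 458, 538 and 608 CPM. The groups overlapped, and 6 of 13 heat stress libraries lay above every control library. JAK1 rose by 0.55 on the log2 scale (standard error 0.12, adjusted p = 0.00187) and by 0.25 with the total count (adjusted p = 0.047). It was higher after heat stress in 11 of 12 animals. In Lexogen libraries the range was 185 to 367 CPM in control and 203 to 481 CPM after heat stress, and the log2 change of 0.35 did not pass the test (adjusted p = 0.203). JAK1 reads on the sense strand alone exceeded the unstranded count by 16.2% in Lexogen and by 2.56% in Takara. STAR does not count a read that lies over 2 genes, and with strand ignored this holds for JAK1 and RAVER2.

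JAK2 serves the receptors for the granulocyte and granulocyte-macrophage colony-stimulating factors, growth hormone and interferon gamma. It lies on chromosome 8, 39380542 to 39498855 (Entrez Gene 525246). In Takara libraries it was at 21.9, 34.8 and 58.6 CPM (lowest, median and highest) in control and at 32.99, 53.3 and 99.7 CPM after heat stress. There were 4 heat stress libraries above the highest control and 4 control libraries below the lowest heat stress library. JAK2 rose by 0.88 on the log2 scale (standard error 0.22, adjusted p = 0.00425), or by 0.54 with the total count, and was higher in 9 of 12 animals. In Lexogen it was at 23.6, 46.4 and 96.1 CPM in control and at 31.03, 68.6 and 147.8 CPM after heat stress, with a log2 change of 0.58 (adjusted p = 0.249).

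STAT3, the factor that carries IL-6 and granulocyte colony-stimulating factor signals to the nucleus, had the largest fold change of the 9 genes in each kit. STAT3 (Entrez Gene 508541) lies on chromosome 19, 42417946 to 42491782. The lowest, median and highest Takara control libraries held 37.7, 65.6 and 103.4 CPM. After heat stress they held 60.6, 129.2 and 394.8 CPM. The heat stress libraries fell into 2 sets with a wide gap, 7 at or below 129.2 CPM and 6 at or above 272.6 CPM. The upper set was made up of animals 7, 15, 16, 18, 36 and 40, which come from both series of sample numbers described further on. The same 6 libraries had the 6 lowest TMM factors of the heat stress group, 0.695 to 0.862, and the other 7 had 0.985 to 1.21. A factor below 1 makes a gene's scaled level higher than its CPM. They also held the 6 highest neutrophil sums of the group, 45502 to 74196 CPM against 4040 to 40814 CPM in the other 7, and the 6 lowest T cell sums, 487 to 719 CPM against 914 to 2028 CPM. STAT3 rose by 1.91 on the log2 scale, a fold change of 3.76 (standard error of the log2 change 0.35, adjusted p = 5e-04). With the total count it rose by 1.48 on the log2 scale. It was higher in 11 of 12 animals, from a log2 CPM change of -0.16 in animal 14 to 3.03 in animal 36.

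In Lexogen libraries STAT3 was at 12.8, 22.5 and 49.4 CPM in control and at 12.2, 36.6 and 161.1 CPM after heat stress. The log2 change was 1.499 (standard error 0.33, adjusted p = 0.0049), and STAT3 was higher in 9 of 12 animals. Here 5 heat stress libraries lay above every control library and 1 lay below every control library. In animal 36, with the largest Takara change, summed neutrophil markers were 3839 CPM in control and 61099 CPM after heat stress in Takara. In animal 14, with the lowest, they were 17491 and 23446 CPM. STAT3 is itself expressed in neutrophils, and the part of the neutrophil and T cell markers in its change was not tested.

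STAT5A and STAT5B are close paralogs, and they lie beside STAT3. STAT5B (Entrez Gene 282376) spans 42319167 to 42384915 of chromosome 19, and STAT5A (Entrez Gene 282375) spans 42395459 to 42415495. The gap between STAT5B and STAT5A is 10543 bp, and the gap between STAT5A and STAT3 is 2450 bp. Reads that match both paralogs equally are multimapped and not counted, so the split between the pair is uncertain. STAT5A was hardly detected. It had between 1 and 33 reads per Takara library, at 0.78 to 2.36 CPM in control and 0.06 to 2.50 CPM after heat stress, where 8 libraries lay below and 1 above every control library. Its Takara log2 change was 0.12 (standard error 0.33, adjusted p = 0.811) with TMM and -0.05 with the total count, and its approximate 95% interval with TMM ran from -0.53 to 0.76. In Lexogen 10 of 13 control and 10 of 13 heat stress libraries had no STAT5A read, and 3 reads would be 0.051 to 0.664 CPM in those libraries.

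STAT5B was well counted in both kits and was not called in either. Takara control libraries ranged from 26.95 to 116.4 CPM (median 42.7) and heat stress libraries from 26.4 to 95.1 CPM (median 54.0). Lexogen control libraries ranged from 99.4 to 363.4 CPM (median 144.7) and heat stress libraries from 129.9 to 364.5 CPM (median 182.7). The log2 change was 0.37 in Takara (standard error 0.26, adjusted p = 0.296) and 0.34 in Lexogen (standard error 0.19, adjusted p = 0.384). In Takara its CPM was higher after heat stress in 7 of 12 animals and lower in 5.

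SOCS1 inhibits JAK kinases downstream of interferons. The gene (Entrez Gene 518795) is on chromosome 25, 9912590 to 9914419. It was at 4.09, 7.95 and 12.7 CPM (lowest, median and highest) in Takara control libraries and at 6.76, 12.7 and 17.0 CPM after heat stress, with 6 heat stress libraries above every control library. SOCS1 rose by 0.84 on the log2 scale (standard error 0.19, adjusted p = 0.00196), or by 0.54 with the total count, and it was higher in 9 of 12 animals by CPM and in 11 of 12 on the TMM scale. Lexogen libraries held between 1 and 102 SOCS1 reads in control and between 1 and 681 after heat stress, and levels ran from 0.156 to 11.4 CPM in control and from 0.217 to 11.6 CPM after heat stress. The Lexogen log2 change of 0.36 had a standard error of 0.60 (adjusted p = 0.834), and its approximate 95% interval of -0.81 to 1.53 held both 0 and the Takara change. Without the heat stress library of animal 15, which had the most SOCS1 reads, the Lexogen change was 0.08 (adjusted p = 0.977).

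SOCS3 dampens signalling from the IL-6 and granulocyte colony-stimulating factor receptors. It lies on chromosome 19 as well, at 53839192 to 53842544 (Entrez Gene 282081). In Takara libraries it was at 12.5, 32.4 and 65.2 CPM in control and at 23.7, 51.1 and 102.9 CPM after heat stress. SOCS3 rose by 1.04 on the log2 scale (standard error 0.30, adjusted p = 0.0119), or by 0.68 with the total count (adjusted p = 0.0491), and was higher in 10 of 12 animals. In Lexogen it was at 18.5, 62.2 and 144.2 CPM in control and at 58.2, 128.7 and 257.1 CPM after heat stress. The log2 change was 1.02 (standard error 0.26, adjusted p = 0.0128), with a higher level in 11 of 12 animals. The groups overlapped in both kits, with 3 Takara and 4 Lexogen heat stress libraries above every control library.

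CISH, the founding member of the SOCS family and a target of STAT5, is on chromosome 22, 49750073 to 49755491 (Entrez Gene 616753). It was at 22.8, 31.4 and 42.8 CPM in Takara control libraries and at 31.6, 40.4 and 72.4 CPM after heat stress. All 13 heat stress libraries lay above the control median, and 5 lay above the highest control library. CISH rose by 0.70 on the log2 scale (standard error 0.17, adjusted p = 0.00299), or by 0.39 with the total count, and was higher in 10 of 12 animals. Lexogen libraries held 10.9 to 33.4 CPM in control and 8.50 to 43.7 CPM after heat stress, and the log2 change of 0.64 did not pass the test (adjusted p = 0.238).

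PIM1 is a serine/threonine kinase induced by STAT3 and STAT5. It lies on chromosome 23, 11066555 to 11071948 (Entrez Gene 281402). Takara control libraries held 40.6, 53.0 and 92.7 CPM and heat stress libraries held 42.1, 87.6 and 194.1 CPM. PIM1 rose by 1.16 on the log2 scale, a fold change of 2.24 (standard error of the log2 change 0.24, adjusted p = 0.00115). With the total count it rose by 0.82 on the log2 scale. The CPM was higher in 11 of 12 animals, and in animal 18 its log2 change was -0.09. On the TMM scale PIM1 was higher in 10 of 12, animal 18 among them. In Lexogen the values were 37.8, 60.2 and 115.6 CPM in control and 43.2, 92.99 and 205.4 CPM after heat stress, with a log2 change of 0.87 (standard error 0.24, adjusted p = 0.0257) and a higher level in 9 of 12 animals.

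**Figure D3:**
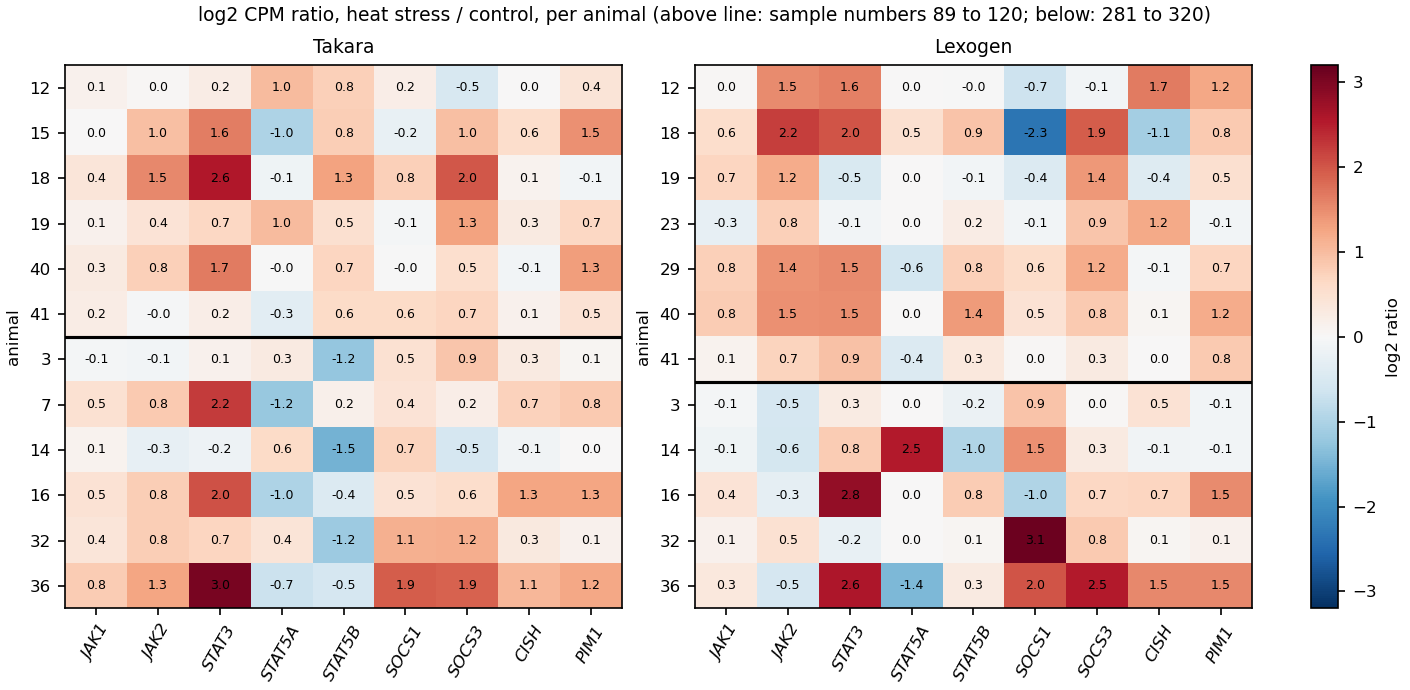
Change of each gene in each animal with both times, as log2 of the ratio of heat stress to control after adding 0.5 CPM to each (colour and printed value), for 12 animals per kit. The black line separates animals with sample numbers up to 120, above it, from those with higher numbers, up to 320, and the Takara STAT5B column is red in all 6 animals above the line and blue in 5 of 6 below it.

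The animals differed in how many of the 9 genes had a higher CPM after heat stress. In Takara the number ran from 4 in animal 14 to 8 in animals 7, 12, 19 and 32. Animal 36 had the largest median change over the 9 genes in each kit, a log2 CPM ratio of 1.23 in Takara and 1.53 in Lexogen. Animal 14 had the smallest in each, -0.11 in Takara and -0.09 in Lexogen.

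The sample numbers in the titles fall into 2 series far apart, a lower one from 89 to 120 (8 animals) and a higher one that ends at 320 (7 animals, animal 20 among them), and what the series stand for is not stated. Each series holds both times. STAT5B was the 1 gene of the 9 whose Takara change differed between them, where 2.27% of 13767 genes did so, 1.76% in the direction of STAT5B and 0.508% in the other. In the animals with lower numbers, STAT5B was at 35.9 ± 6.39 CPM (SD, n = 7 libraries) in control and at 67.2 ± 17.5 CPM (SD, n = 7) after heat stress. In those with higher numbers it was at 74.5 ± 23.1 CPM (SD, n = 6) in control and at 42.98 ± 12.3 CPM (SD, n = 6) after heat stress. STAT5B was higher after heat stress in 6 of 6 animals of the lower series and in 1 of 6 of the higher series. The log2 changes were 1.29 (adjusted p = 0.0045) and -0.53 (adjusted p = 0.286) by edgeR within each series, and the difference, higher minus lower series, was -1.87 (standard error 0.39, adjusted p = 0.0115). With the animal as a replicate block the difference was -1.77 (adjusted p = 0.0365).

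**Figure D4:**
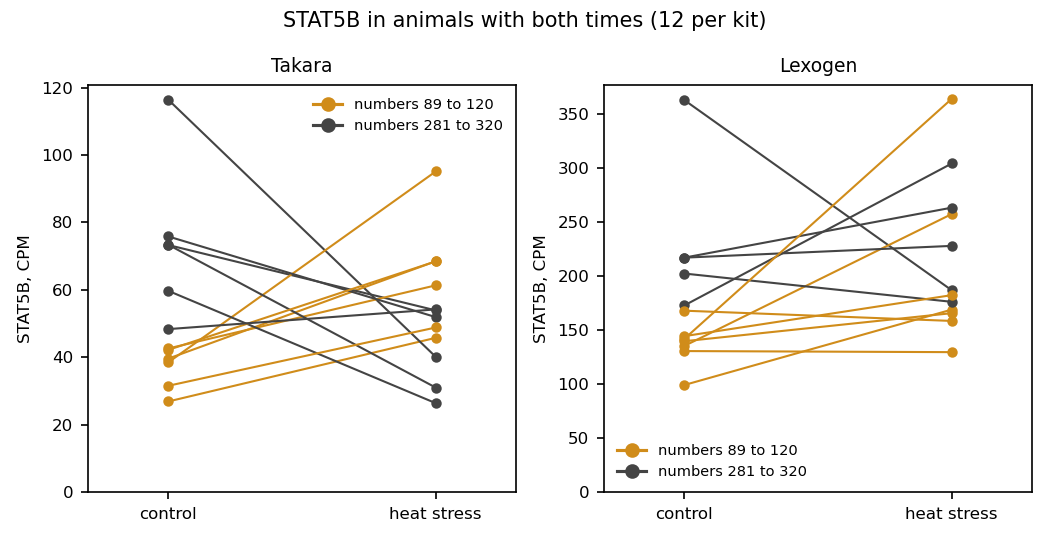
STAT5B level in CPM (vertical axes, linear, from 0) in control and heat stress blood of the 12 animals with both times in each kit, joined by a line per animal, for the lower (orange) and higher (dark grey) series of sample numbers. In Takara the orange lines climb and 5 of 6 grey lines fall, while in Lexogen both colours go both ways.

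The control libraries of the series stood apart in Takara before any heat. The highest STAT5B level among the 7 control libraries of the lower series was 42.7 CPM, and the lowest among the 6 of the higher series was 48.4 CPM. Summed platelet markers had a median of 1673 CPM in control and 2079 CPM after heat stress in the lower series, and of 3180 and 2052 CPM in the higher series. By animal they were lower after heat stress in 6 of 6 animals of the higher series. In the lower series they were lower in 4 of 6 animals, while STAT5B was higher in all 6. Other marker sums differed between the series as well. The Takara monocyte median went from 889 to 828 CPM in the lower series and from 500 to 1044 CPM in the higher. The erythroid median went from 1040 to 763 CPM in the lower series and from 2012 to 1206 CPM in the higher. Single genes made up most of 2 of these sums. In Takara controls PF4 averaged 2437 CPM beside 2651 for the platelet sum, and HBB 1718 CPM beside 1761 for the erythroid sum. The part of these cell types in the STAT5B result was not tested. Reads on the strand opposite to STAT5B were spread unevenly. In Takara they made up 21.2% to 40.99% of the STAT5B count in 5 libraries of animals 18, 19 and 29, all of the lower series, and 0% to 6.75% in the other 22 libraries. On the sense strand alone the difference between the series was -1.77 (adjusted p = 0.0135), and the median sense level went from 29.6 to 56.6 CPM in the lower series and from 70.7 to 44.5 CPM in the higher.

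In Lexogen libraries STAT5B was at 137 ± 20.5 CPM in control and 201 ± 75.5 CPM after heat stress in the lower series (SD, n = 7 and 8). In the higher series it was at 217.7 ± 78.4 and 232 ± 53.3 CPM (SD, n = 6 and 5). The difference in log2 change between the series was -0.70 and did not pass the test (edgeR adjusted p = 0.661), and 0.0222% of 13484 Lexogen genes passed it, 0.0148% upward and 0.00742% downward. JAK2 showed a split in Lexogen that it did not show in Takara. It was higher after heat stress in 7 of 7 animals of the lower series, from 38.4 ± 11.7 to 89.8 ± 37.3 CPM (SD, n = 7 and 8 libraries), with a log2 change of 1.39 (edgeR adjusted p = 0.0133). In the higher series it was lower in 4 of 5 animals, from 70.7 ± 26.6 to 53.6 ± 18.3 CPM (SD, n = 6 and 5). The difference of -1.82 did not pass the adjusted threshold (edgeR adjusted p = 0.199). In Takara the corresponding JAK2 difference was -0.18 (edgeR adjusted p = 0.889). Summed Lexogen platelet markers had a median of 611 CPM in control and 825.5 CPM after heat stress in the lower series and of 1803 and 1273 CPM in the higher. By animal they were higher after heat stress in 4 of 7 animals of the lower series and lower in 4 of 5 of the higher. The Lexogen monocyte median went from 457 to 531 CPM in the lower series and from 354 to 498 CPM in the higher. The part of these cell types in the JAK2 values was not tested.

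The kits gave each gene a different share of the reads. In 12 control RNA samples sequenced with both, all 8 genes tested differed between the kits, against 64.2% of 12386 genes (36.6% higher in Takara and 27.6% lower). STAT3, JAK1, SOCS1 and CISH took a larger share in Takara, by log2 differences of 1.00, 0.33, 1.34 and 0.67. For JAK1 the sense-strand reads exceeded the unstranded count used here by 16.2% in Lexogen and by 2.56% in Takara. The JAK1 kit difference thus includes this unequal loss, and it was not tested on sense counts. STAT5B, SOCS3, JAK2 and PIM1 took a larger share in Lexogen, with Takara minus Lexogen differences of -2.17, -1.62, -0.84 and -0.46. The edgeR adjusted p ran from 9.63e-11 for STAT5B to 0.0191 for SOCS1. The test found no difference between the kits in the change from control to heat stress, but it had little power. In simulated counts it recovered 7.1% of 2-fold and 55.1% of 4-fold differences, for genes drawn at random. The simulation gave each gene the same mean in both kits and in all RNA samples, unlike the data. These rates are therefore a rough guide only. In 24 RNA samples with both kits, the Lexogen change minus the Takara change was -0.02 for STAT3, 0.01 for SOCS3 and -0.04 for PIM1, with approximate 95% intervals of -0.54 to 0.50, -0.41 to 0.43 and -0.48 to 0.39. The edgeR adjusted p was 1.0 for each of the 9 genes, and 0% of 13354 genes passed, with 526 at an unadjusted p under 0.05. Intervals for SOCS1 (-1.13 to 1.29) and STAT5A (-2.11 to 3.79) were too wide to show whether the kits differed. In 10 animals with both times in both kits, the direction of the CPM change was compared. It was the same in both kits in 9 animals for JAK1 and SOCS3 and in 7 for STAT3, JAK2, CISH and PIM1. It was the same in 6 for SOCS1, in 5 for STAT5B and in 3 for STAT5A. For STAT5A the Lexogen libraries of animals 3, 12, 16, 19, 32 and 40 held no read at either time. These animals had no direction to compare and were not counted as the same. Among the remaining animals the STAT5A direction differed only in animal 18.

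The other genes of the pathway were taken from 6 lists with 94 genes in all, of which 65 were tested in Takara and 59 in Lexogen. The lists had been chosen with earlier results of these data known. Their counts and medians are therefore not a fresh test against all genes. For genes of these lists, a pair of CPM values gives the control and heat stress group means, without TMM scaling. Unless the total count is named, log2 changes are edgeR estimates with TMM scaling. They differ from the log2 ratio of the CPM means. Of 23 tested cytokine receptor chains, 12 were higher and 2 lower in Takara, and 4 of 21 were higher and none lower in Lexogen. The median log2 change of the receptor list was 0.51 in Takara and 0.66 in Lexogen, beside -0.05 and -0.08 for all genes tested. With scaling to the total count, 6 receptor chains were higher and 2 lower in Takara. The receptor chains with the smallest adjusted p in Takara were IL13RA1, which binds IL-13, and IL2RA, the inducible chain of the IL-2 receptor. IL13RA1 rose from 231 to 520.3 CPM in Takara, with an edgeR log2 change of 1.58 (adjusted p = 9.51e-04). In Lexogen its log2 change was 0.96 (adjusted p = 0.0333, or 0.0592 without animal 15). IL2RA rose from 32.5 to 64.2 CPM in Takara, with an edgeR log2 change of 1.36 (adjusted p = 0.00129). Its Lexogen log2 change was 1.07 (adjusted p = 0.145).

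Both chains of the type I interferon receptor were higher. In Takara the log2 change was 1.37 for IFNAR2 and 1.136 for IFNAR1, with adjusted p of 0.00148 and 0.00257, and in Lexogen it was 1.00 and 1.03, with adjusted p of 0.0159 and 0.023 (0.0634 for IFNAR1 without animal 15). IFNGR1, a chain of the interferon gamma receptor, rose by 1.16 in Takara (adjusted p = 0.0025), and its Lexogen log2 change was 0.56 (adjusted p = 0.27). CSF2RA, the binding chain for granulocyte-macrophage colony-stimulating factor, rose by 0.96 in Takara (adjusted p = 0.00409) and by 1.29 in Lexogen (adjusted p = 0.0444, or 0.0771 without animal 15). IL6R, which binds IL-6, rose from 288.2 to 334 CPM in Takara, with an edgeR log2 change of 0.52 (adjusted p = 0.00533). With the total count its log2 change was 0.21 (adjusted p = 0.0826). In Lexogen its log2 change was 0.55 (adjusted p = 0.107). The 2 receptor chains lower in Takara were IL9R, with a log2 change of -0.85 (adjusted p = 0.0267), and IL27RA, with -0.46 (adjusted p = 0.0304), and they were named after their values were seen. With the animal as a replicate block IL27RA was no longer called in Takara (edgeR adjusted p = 0.0552), and IL9R still was (0.0306). None of the 4 Lexogen receptor calls held with the animal as a replicate block.

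Most cytokine ligands were too low to be tested in blood, 6 of 21 being tested in Takara and 5 in Lexogen. In Takara IL15, OSM and IL12B were higher and none was lower, and in Lexogen none passed. With the total count OSM was no longer called (adjusted p = 0.068). IL15, a growth factor of natural killer and memory T cells, rose from 33.7 to 62.7 CPM in Takara. Its edgeR log2 change was 1.24 in Takara (adjusted p = 0.00437) and 0.66 in Lexogen (adjusted p = 0.244). IL6 itself had a mean of 0.0255 CPM in control and 0 CPM after heat stress in Takara. In Lexogen its mean was 1.07 CPM (SD 3.73, n = 13) in control and 0.114 CPM (SD 0.194, n = 13) after heat stress.

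Of the other 6 JAKs and STATs, TYK2 and STAT6 were higher in Takara, none was lower, and none passed in Lexogen. TYK2, the remaining kinase of the interferon receptors, rose by 0.85 on the log2 scale in Takara (adjusted p = 0.00324), and its Lexogen log2 change was 0.50 (adjusted p = 0.186). Of the 4 other SOCS genes tested, SOCS6 was higher in Takara, with a log2 change of 0.90, and none passed in Lexogen. OSM, IL12B, STAT6 and SOCS6 were named after their values were seen. With scaling to the total count, 1 of the other JAKs and STATs and none of the other SOCS genes was called in Takara.

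A list of 10 genes held PIAS proteins, phosphatases and SH2B3, and most of their products restrain STATs or JAKs. Of these 10, 6 were higher and none lower in Takara, and 2 were higher in Lexogen. With the total count 5 were higher and 1 lower in Takara, and with the animal as a replicate block neither Lexogen call, PTPN6 and PTPN1, held. PTPN6, the phosphatase SHP-1 of blood cells, rose from 393 to 686 CPM in Takara. Its edgeR log2 change was 1.16 in Takara (adjusted p = 4.12e-04) and 1.54 in Lexogen (adjusted p = 0.0163). PTPN1, the phosphatase PTP1B, rose by 0.95 in Takara (adjusted p = 0.00171) and by 0.98 in Lexogen (adjusted p = 0.0132). The SUMO ligases PIAS1, PIAS2 and PIAS3 rose in Takara by 0.80, 0.98 and 0.73 on the log2 scale, with adjusted p of 9.28e-04, 0.00227 and 0.00244. Their Lexogen log2 changes were 0.33, 0.45 and 1.18, with adjusted p of 0.496, 0.354 and 0.304.

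**Figure D5:**
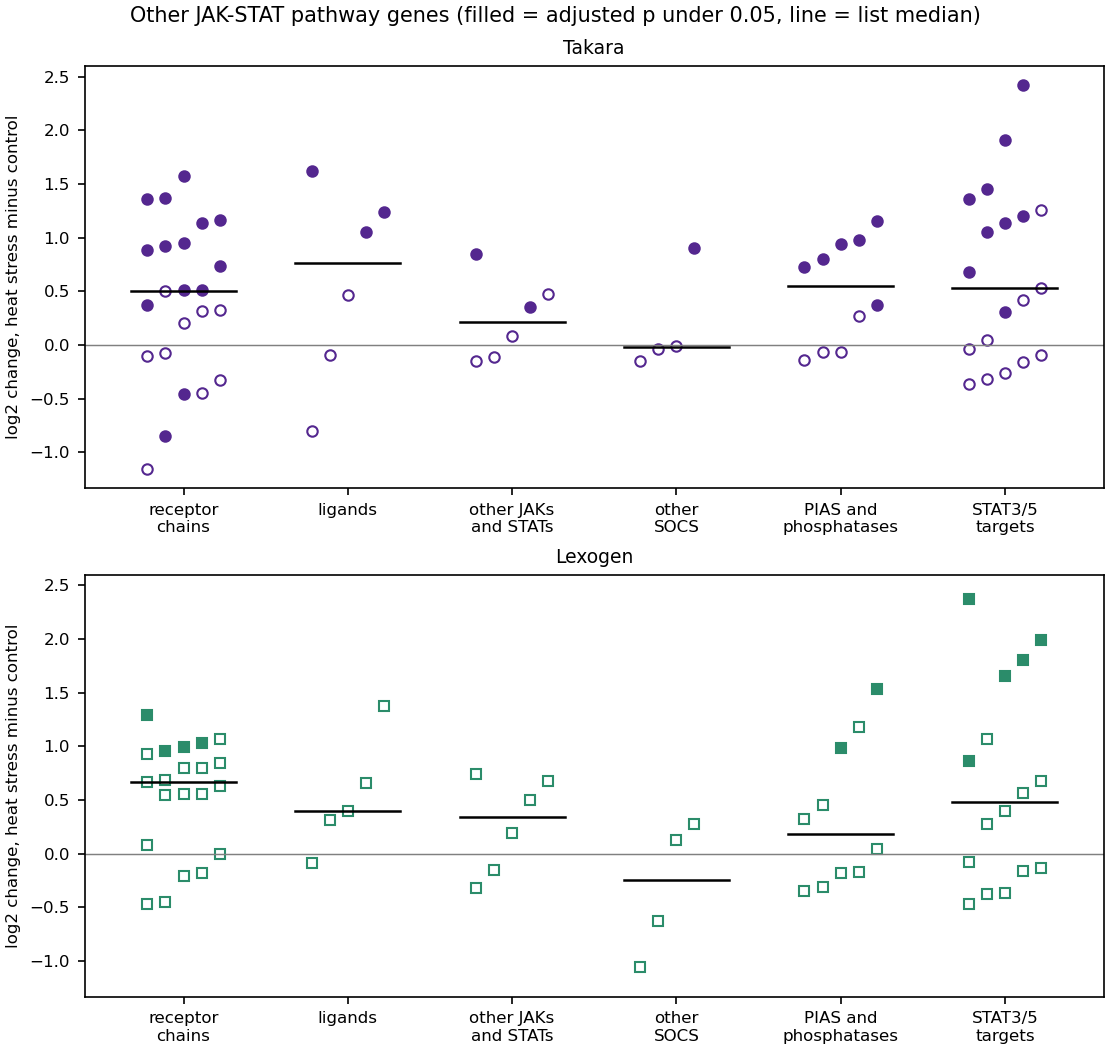
Log2 change from control to heat stress (vertical axes, edgeR with TMM scaling) of every tested gene in the 6 pathway lists, in Takara (top) and Lexogen (bottom) libraries, with filled symbols for an adjusted p under 0.05 and a black line at the list median. In Takara the filled symbols lie above 0 except for 2 receptor chains, and in Lexogen all filled symbols lie above 0.

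Of 19 tested textbook targets of STAT3 and STAT5, 9 were higher and none lower in Takara, and 5 of 16 were higher and none lower in Lexogen. The list shares IL2RA with the receptor chains, OSM with the ligands and SOCS2 with the other SOCS genes. IL2RA and OSM are among the 9, so these calls were counted above as well. The median log2 change of the list was 0.53 in Takara and 0.48 in Lexogen. With the total count 6 targets were higher in Takara, and with the animal as a replicate block none of the 5 Lexogen calls held. CEBPD, a transcription factor of the acute-phase response, rose from 423 to 1635 CPM in Takara. Its edgeR log2 change was 2.42 in Takara (adjusted p = 0.00267) and 2.37 in Lexogen (adjusted p = 0.00104). CCND3, a D-type cyclin, rose from 568.5 to 1584 CPM in Takara. Its edgeR log2 change was 1.91 in Takara (adjusted p = 4.22e-04) and 1.99 in Lexogen (adjusted p = 0.00208). The repressor BCL6 rose by 1.46 in Takara (adjusted p = 0.00151) and by 1.66 in Lexogen (adjusted p = 0.00245).

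MCL1, which protects neutrophils and other leukocytes from apoptosis, rose from 675 to 1180 CPM in Takara. Its edgeR log2 change was 1.20 in Takara (adjusted p = 0.00175) and 0.87 in Lexogen (adjusted p = 0.00889). BCL3, a cofactor of NF-κB, rose by 1.13 in Takara (adjusted p = 0.00335) and by 1.80 in Lexogen (adjusted p = 0.0474). Without animal 15 its Lexogen change was 1.28 (adjusted p = 0.191). JUNB, an AP-1 subunit, rose by 0.68 in Takara (adjusted p = 0.00591), and with the total count its change was 0.41 (adjusted p = 0.0532). Its Lexogen log2 change was 0.68 (adjusted p = 0.113). Other listed targets did not pass in Takara, among them MYC with a log2 change of -0.26 (adjusted p = 0.154), BCL2L1 with -0.09 (adjusted p = 0.71), and the PIM1 relatives PIM2 and PIM3 with -0.31 and -0.16 (adjusted p = 0.249 and 0.598). These 4 were chosen after their values were seen.

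The marker lists of the blood cell types gave the following counts. Of 7 monocyte markers, 4 were higher in Takara and none in Lexogen, and with the total count 2 were higher in Takara. Summed T cell markers had a median of 1583 CPM in control and 914 CPM after heat stress in Takara. Of 6 B cell markers, 1 was lower in Takara and none in Lexogen. Of 5 cytotoxic lymphocyte markers, NCR1 was higher in each kit. Its Lexogen call was lost with the animal as a replicate block (adjusted p = 0.272) and without the heat stress library of animal 15 (adjusted p = 0.0644). No platelet marker of 4 tested, no erythroid marker of 2 tested and not CCR3, the 1 eosinophil marker counted, passed in either kit. Summed erythroid markers were still 505 to 3440 CPM in Takara after red cell lysis, with HBA1 at 0 in every library. The part of any cell type in the JAK-STAT changes was not tested.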

How the data were processed

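The deposited files held unstranded and stranded read counts per gene, made by the authors with STAR 2.7.10b GeneCounts on ARS-UCD2.0 after Trimmomatic 0.39, with quality checks in FastQC 0.11.9 and MultiQC 1.14 per the labels. Reads that map to several places or to overlapping genes were not counted. With these included, 32.2% to 57.9% of the filtered reads were not counted on any gene. The unstranded counts were used here as raw counts without UMIs. CPM divides by all reads counted on genes. Genes were filtered with filterByExpr, scaled with TMM and tested in edgeR 4.0.16 (R 4.3.3) for time of sample alone within each kit, as the study did with DESeq2, with an adjusted p of 0.05 as threshold. The interaction of kit and time had the RNA sample as a block, and that of number series and time had none. Standard errors come from the quasi-likelihood F statistic, and approximate 95% intervals are normal ones from them. No pair of libraries was identical.

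Alternatives were DESeq2 1.42.0, its size factors, the total count on genes, no filter, sense counts, the animal as block, animal 20 as labelled, either number series and, for Lexogen, no animal 15. Pairing follows from the animal number in the titles. Deviations of paired libraries correlated with a median r of 0.23 in Takara (0.05 to 0.40) and 0.03 in Lexogen (-0.12 to 0.13). Sense counts for the number series were added after the data were seen. The members, pathway lists and marker lists were chosen with earlier results of these data known. Pathway genes were named if called in Takara with the same sign in Lexogen, 20 at most by Takara adjusted p, of 32 that qualified. The fits were tested on simulated counts. Gene positions are from RefSeq (ARS-UCD2.0), with 30271 symbols matched. No sequence was used here, so a planned motif search was not run. The limit that 3 reads set where a count was 0 covers counting error only.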

Additional observations from a re-analysis of the deposited data

Results flagged for a closer look

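The change of STAT5B from control to heat stress differed between the number series in Takara by a log2 difference of -1.87, higher minus lower series, in the interaction test (edgeR adjusted p = 0.0115).

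The 2 libraries of animal 20 were outside the comparison, and several genes there lay above all 13 control libraries of the kit. In Takara, STAT3 was at 396 CPM (highest control 103.4), JAK1 at 586 (542), JAK2 at 69.0 (58.6), SOCS1 at 16.2 (12.7), SOCS3 at 109 (65.2) and PIM1 at 232 (92.7). In Lexogen, STAT3 was at 70.4 CPM (highest control 49.4), SOCS3 at 257 (144.2), CISH at 35.7 (33.4) and PIM1 at 148 (115.6). Its Takara STAT3, SOCS3 and PIM1 levels were also above the highest heat stress library used, at 394.8, 102.9 and 194.1 CPM. Its summed neutrophil markers were 72119 CPM in Takara and 36802 CPM in Lexogen. The label puts this blood in heat stress, and another record of the study does not.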

How the results depend on the processing

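The same 7 of the 9 genes were called in Takara with DESeq2, its size factors, the total count, no filter, sense counts, the animal as replicate block and animal 20 as labelled. The lower number series also gave 7 calls, with STAT5B (adjusted p = 0.0045) in place of CISH (0.0809), beside 2630 of all 12791 genes tested. The higher series gave 2, STAT3 and CISH, beside 931 of all 12661 genes tested. In Lexogen the same 3 genes were called with DESeq2, its size factors, the total count, no filter, sense counts, animal 20 as labelled and no animal 15. The lower series gave 2 calls, SOCS3 and JAK2, beside 402 of all 11532 genes tested, and STAT3 (0.0883) and PIM1 (0.0888) were lost. The count was 0 with the replicate block (edgeR, 4 genes under 0.05 before adjustment) and 0 in the higher series (1 gene). The block changed no other call among the 9 genes, and all 11 named pathway genes called in Lexogen lost the call under it. Without animal 15, 4 of these were lost. Over all genes the block left 63 Lexogen calls of 616 and 3162 Takara calls of 3646. The higher series gave 931 Takara calls and 0 Lexogen calls, where edgeR put 1275 genes under 0.05 before adjustment. No filter gave 3273 Lexogen calls and DESeq2 gave 1006. The log2 change turned sign for STAT5A in Takara with the total count (-0.048). In the higher series it turned sign for STAT5A (-0.077) and STAT5B (-0.53) in Takara and for JAK2 (-0.44), PIAS1 (-0.0083), PIAS3 (-0.12) and JUNB (-0.087) in Lexogen. The cause was not tested. STAT5A had the fewest reads of the 9 genes in both kits, and the deepest library held none.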
